A study of Rattus norvegicus with 2 samples.

Results

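Spectrins, ankyrins and spectraplakins are the long linker proteins of the submembrane and cytoskeletal scaffold, and 8 of their genes were followed here through a table of m6A peaks: Sptan1, Sptbn1, Sptbn4, Ank1, Ank2, Ank3, Dst and Macf1. Members were the rows of the table whose gene name was one of these 8. They numbered 33 peaks of the 8512 listed, and 8 genes of the 4212 gene names listed. All 8 members had at least 1 peak, so none was without one. The names were checked against the RefSeq gene table of rat assembly GRCr8: all 8 symbols matched, and all 33 peaks carried the gene ID and the chromosome that belong to their symbol.

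The mark studied, N6-methyladenosine (m6A), is a methyl group on adenosines of RNA, and it was mapped in primary hippocampal neurons from postnatal day 0 Sprague-Dawley rats. The cultures received AraC, which kills dividing cells, on day 7 in vitro, and lead acetate (PbAc) from day 12 for 48 h. The dose is 5 mM in the labels but 5 µM in the study design, and exposure ended on day 13 or day 14 depending on the field. An antibody against m6A was used to pull down RNA, and the 2 libraries, 1 of the immunoprecipitate (IP) and 1 of the input, were made from lead-exposed cultures. Because unexposed cultures are not analysed here, nothing below measures an effect of lead. Each group had 1 library, so no value has a replicate and no test was possible, and the depth of the libraries is unknown because the table holds no read counts. Fold enrichment, the linear ratio of IP over background, and the score, 10 times the −log10 of the p-value, are the values of the authors' peak caller. The deposited percent of false discoveries was 100 in every row. Counts by p below therefore carry no false-discovery control, and strong or weak refers to score or fold alone. Peaks of 1 gene come from the same pair of libraries and are not replicates of each other. Positions are those of the deposited table, with starts counted from 1. No source used here gives its genome build, so the exon, intron or UTR of a peak was not analysed here, and neither was the sequence under it.

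Of the neuron markers, 9 of 12 had a listed peak, and all 9 had one with a p of at most 1e-10. Peaks were listed for 1 of 8 astrocyte markers (Sox9, 5.78-fold), 1 of 9 oligodendrocyte markers (Cnp, 5.59-fold), 2 of 8 microglial markers (Aif1, 6.34-fold, and C1qa, 3.52-fold), 1 of 9 vessel and fibroblast markers (Col3a1, 7.2-fold), and 1 of 4 erythroid markers (Alas2, 3.4-fold). Of these 6 peaks, that of Col3a1 had a p of at most 1e-10. Of all protein-coding genes, 17.3% had a listed peak and 7.01% had one at that p. The shares of the astrocyte, oligodendrocyte and vessel markers lay below the first of these values. Those of the neuron, microglial and erythroid markers lay above it, and each list is short. A peak needs both an expressed transcript and recovery by the antibody, and fewer cells of a type and less RNA per cell cannot be told apart in these bulk samples.

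Spectrin is built from alpha and beta chains that join into a flexible tetramer, which crosslinks short actin filaments into a lattice under the plasma membrane and, in axons, into a periodic skeleton of actin rings. Ankyrins bind beta spectrin on one side and ion channels, pumps and adhesion molecules on the other, and so hold membrane proteins in place at the axon initial segment and the nodes of Ranvier. Spectraplakins combine an actin-binding end, a long rod of plakin and spectrin repeats and a microtubule-binding end, and couple actin to microtubules in axons. Loss of such linkers is known to damage axons.

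The 33 peaks were spread unevenly over the 8 genes. The spectraplakin gene Dst held 16 of them (48.5%), the beta spectrin gene Sptbn4 held 6, and the alpha spectrin gene Sptan1 and the ankyrin gene Ank3 held 3 each. Macf1 had 2 peaks. Sptbn1, Ank1 and Ank2 had 1 peak each. A listed peak was found for 17.3% of all 23154 protein-coding genes, and that background includes genes that neurons do not express. Among listed genes, 44.9% had 2 or more peaks, against 5 of the 8 members, and 23.6% had 3 or more, against 4 of the 8 members. The 8 genes were picked with results of these data known, so these shares are a description.

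**Figure D1:**
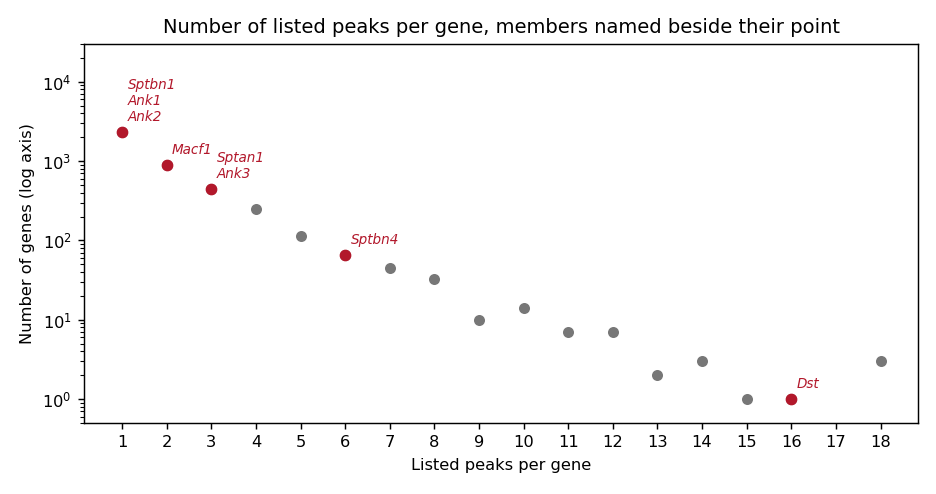
The number of genes (log axis) is plotted against the number of listed peaks per gene, with red points and names for the values that hold members. Dst, with 16 peaks, lies near the right end, whereas Sptbn1, Ank1 and Ank2 share the value of 1 peak with most genes.

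The folds of the members were moderate. The median over the 33 member peaks was 6.9 (order-statistic 95% interval 5.35 to 7.97), with quartiles of 4.94 and 8.77, against a median of 5.9 over all 8512 peaks with quartiles of 4.41 and 8.45. That interval treats the peaks as independent, although 16 of them lie in Dst and all share 1 pair of libraries. It is a description only. The lowest member fold was 3.36, in Sptbn4, and the highest was 14.46, in Macf1. In all, 6 of 33 member peaks (18.2%) reached 10-fold, close to the 17.3% of all listed peaks that did. They lay in 4 members, namely 3 in Dst and 1 each in Macf1, Sptan1 and Sptbn4; of all listed genes, 24.2% had a peak of at least 10-fold. No member peak reached the score of 3100, which was the most frequent score in the table and was held by 168 peaks.

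Relative to all listed peaks, the members stood higher by score than by fold. Their median score was 139.73, against 40.47 over all listed peaks. A p of at most 1e-10, which is a score of at least 100, was reached by 18 of the 33 member peaks (54.5%), against 32.9% of all listed peaks. These 18 peaks lay in 6 members, all but Sptbn1 and Ank1; of all listed genes 40.6% had such a peak, and of all protein-coding genes 7.01%. At the other end, 5 member peaks had a p above 0.05, against 28.2% of all listed peaks. Spearman's rho between fold and score was 0.66 over the 33 member peaks and 0.83 over all listed peaks, as a description of peaks that share the same libraries. A peak of few reads can have a high fold with a low score, and read counts are not in the table.

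**Figure D2:**
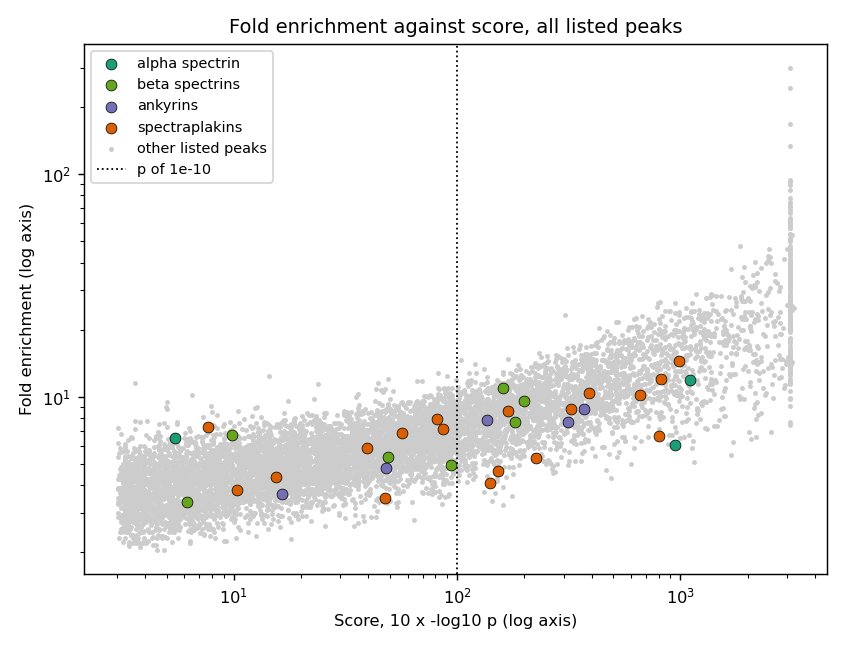
Each point is a listed peak, with its score on the x axis and its fold enrichment on the y axis (both log axes), coloured by protein family for the members and grey for all others. The member peaks lie within the cloud, from a score of 5.48 to 1099.24, and none lies in the column of points at 3100.

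Sptan1 encodes the alpha chain shared by the spectrins of neurons (gene ID 64159, chromosome 3). Its 3 peaks covered 451 bases within 45.3 kb. The first, at bases 13878433 to 13878537, had a fold of 6.52 with a score of 5.48, a p of 0.28. The second had a nearly equal fold of 6.09 but a score of 940.79, a p of 8.3e-95. The third peak, at bases 13923539 to 13923737, stood highest with a fold of 11.88 and a score of 1099.24, the largest score of any member peak. Its score was at or above those of 93.9% of all listed peaks. Sptan1 therefore had 2 peaks with strong scores and 1 whose score was near the floor of the table. The peaks were 26.9 and 18.0 kb apart.

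Of the beta chains, Sptbn1 encodes the widely expressed beta spectrin that pairs with the Sptan1 chain along axons (gene ID 305614, chromosome 14). It had a single peak of 197 bases, at bases 114198111 to 114198307, with a fold of 5.35 and a score of 49.11, a p of 1.2e-05. That fold was close to the median highest fold of 5.45 of the 2320 genes with 1 peak. Sptbn4 encodes the beta spectrin concentrated at the axon initial segment and nodes (gene ID 308458, chromosome 1).

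Sptbn4 had 6 peaks of 147 to 751 bases within 38.5 kb. In order along the chromosome their folds were 7.69, 6.73, 10.98, 4.94, 9.61 and 3.36. The highest, at bases 85394871 to 85395149, had a score of 161.11, and the best score, 199.75, belonged to the 9.61-fold peak. The last peak, at bases 85424948 to 85425698, was the longest and the weakest, with a score of 6.15, a p of 0.24. The second, 846 bases after the first, had a score of 9.84 despite its 6.73-fold enrichment. Strong and weak peaks thus alternated along Sptbn4, and 3 of the 6 reached a p of 1e-10. Its highest fold of 10.98 was at the median of 10.985 among the 66 genes with 6 peaks.

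The ankyrin genes had few peaks, and none reached 10-fold. Ank1 encodes ankyrin-R, first known from the red cell membrane and also made in neurons (gene ID 306570, chromosome 16). It had 1 peak of 277 bases, at bases 73319726 to 73320002, with a fold of 3.64 and a score of 16.42, a p of 0.023. That was the weakest highest fold of the 8 members, below the lower quartile of 4.19 of genes with 1 peak. Ank2 encodes ankyrin-B, an ankyrin of the axon shaft (gene ID 362036, chromosome 2). Its 1 peak was the shortest of any member at 55 bases, at 250605014 to 250605068, and had a fold of 8.77 and a score of 370.34, a p of 9.2e-38. Only 3.34% of all listed peaks were that short or shorter, and its fold stood above the upper quartile of 7.645 of genes with 1 peak.

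Ank3 encodes ankyrin-G, the organiser of the axon initial segment (gene ID 361833, chromosome 20). Its 3 peaks had the widest reach of any member, 138.0 kb, of which 0.408% lay in peaks. The first, at bases 22462411 to 22462509, was the lowest with a fold of 4.8 and a score of 48.2. The second, 120.0 kb further on, had a fold of 7.72 and a score of 314.28 over 379 bases. The third, at bases 22600508 to 22600593, had the highest fold of the gene, 7.85, with a score of 135.78. The pair with the higher folds therefore lay together at 1 end, 17.8 kb apart. The caller's peak numbers follow position on all 21 chromosomes, and 1 number between the first and second Ank3 peaks is absent from the table, so 1 further call in that interval is not analysed here. For every other member with several peaks the numbers ran without a break, and no peak of another gene lay between the first and last peak of any member. Over all listed peaks the numbers run up to 14090 for 8512 rows, so many calls elsewhere are absent too.

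**Figure D3:**
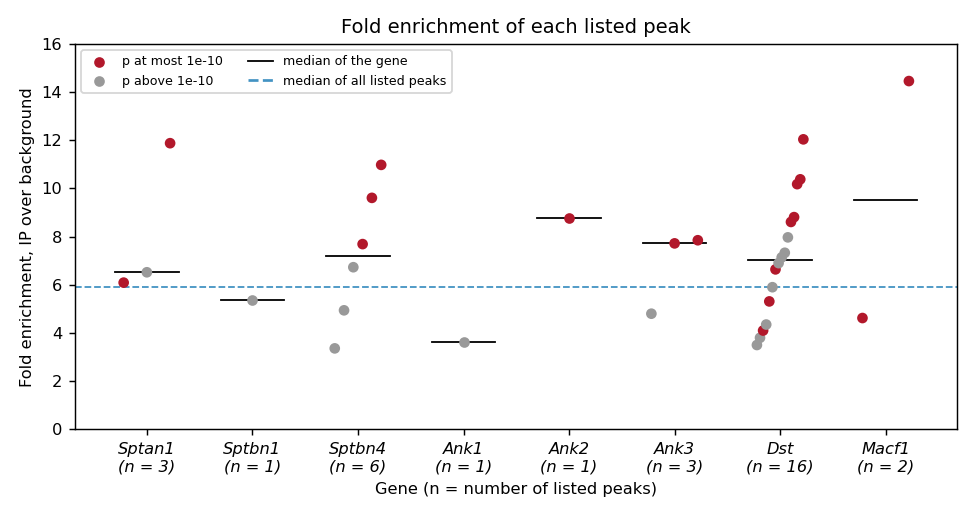
Each point is a listed peak, with its fold enrichment on the y axis and the genes on the x axis; red points have a p of at most 1e-10, grey points a larger p, black bars are the medians of each gene, and the dashed line is the median of all listed peaks. The medians of Sptbn1 and Ank1 lie below the dashed line at 5.9 and those of the other 6 members above it.

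Dst encodes dystonin, the spectraplakin whose loss causes sensory neuropathy with dystonia in mice (gene ID 316313, chromosome 9). With 16 peaks it ranked 4 among all 4212 listed genes, and 0.095% of genes had as many or more. The peaks ran from base 37604134 to base 37720852, a span of 117.0 kb, and covered 4898 bases or 4.2% of it. Folds ranged from 3.5 to 12.04 with a median of 7.02, and 8 of the 16 peaks reached a p of 1e-10. Of the 16, 13 were tied to one Ensembl transcript and the last 3 to another.

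Along the chromosome the longest gap of Dst, 25.7 kb, parted 9 peaks from 7. The 9 peaks before it lay within 47.6 kb. The first, at bases 37604134 to 37604322, was the strongest of the gene, with a fold of 12.04 and a score of 815.11, a p of 3.1e-82. The other folds above 10 in Dst were both before the gap, 10.38 at the fifth peak (score 391.44) and 10.18 at the seventh (score 659.25). The remaining 6 of these 9 peaks lay between 4.1 and 7.97-fold. The second peak combined a fold of 7.33 with a score of 7.7, a p of 0.17, whereas the fourth combined the lowest fold of this stretch, 4.1, with a score of 139.73. High and low peaks were therefore interleaved within a few kb of each other.

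The 7 peaks after the gap lay within 43.5 kb and had a median fold of 5.31, against 7.33 for the 9 before it, with no test of that difference. Their ranges overlapped, from 3.5 to 8.81 after the gap and from 4.1 to 12.04 before it. The tenth and eleventh peaks, 786 bases apart, had similar folds of 8.81 and 8.61 and scores of 323.26 and 169.07. The twelfth had a lower fold of 6.64 but a score of 803.43, nearly that of the strongest peak. The last 4 peaks had folds of 3.8, 4.35, 5.31 and 3.5, the lowest run along the gene. The lowest of all was the last, at bases 37720745 to 37720852, with a score of 47.73, and it lay 518 bases after the fifteenth. The fourteenth was 2233 bases long, at or above the length of 99.4% of all listed peaks, yet had a score of only 15.52, a p of 0.028. All other Dst peaks were 99 to 267 bases long.

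Macf1 encodes the other spectraplakin, MACF1 or ACF7, which guides microtubules along actin and is needed for neuronal migration (gene ID 362587, chromosome 5). It had 2 peaks, 234 and 232 bases long. The second, at bases 144935367 to 144935600, had the highest fold of any member, 14.46, with a score of 989.78, a p of 1.1e-99. The first, at bases 144864793 to 144865024, had a fold of 4.62 and a score of 153.14. Both passed a p of 1e-10. The gap between them was 70.3 kb. The paralogous spectraplakins thus differed in number, with 16 peaks in Dst and 2 in Macf1, while the single highest fold was in Macf1.

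**Figure D4:**
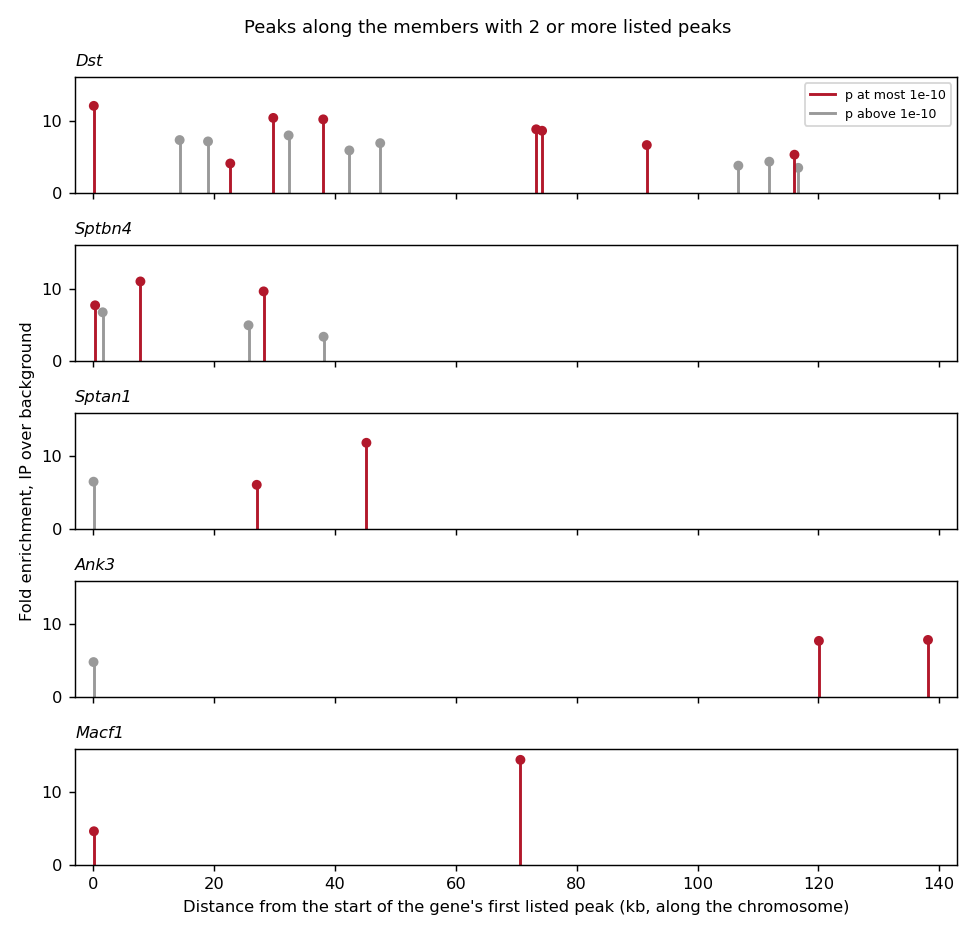
Fold enrichment (y axis) is drawn at the position of each peak (x axis, kb along the chromosome from the start of the gene's first listed peak) for the members with several peaks, in red where p was at most 1e-10 and in grey otherwise. Dst is filled by 16 peaks over 117.0 kb, whereas the 3 peaks of Ank3 spread over 138.0 kb and the 2 of Macf1 lie 70.3 kb apart.

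The spacing of peaks differed between the members by more than an order of magnitude. Over the 25 gaps between neighbouring peaks of a member the median was 6.0 kb, against 4.63 kb over the 4288 gaps of all listed genes. The median gap was 4.5 kb in Dst and 6.0 kb in Sptbn4. It was 22.4 kb in Sptan1 and 68.8 kb in Ank3, and the only gap of Macf1 was 70.3 kb. Without Dst, the 10 other gaps had a median of 17.7 kb. Gaps over 10 kb made up 10 of the 25, against 32.0% of all gaps, and 3 of the 25 were under 1 kb, against 7.93% of all gaps. These distances are along the chromosome and include introns, so 2 peaks far apart here may lie close together in the mature transcript.

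Set beside genes with as many peaks, the gap of Macf1 exceeded the upper quartile of 22.3 kb of 894 genes with 2 peaks (median 6.62 kb). The median gaps of Ank3 and Sptan1 both exceeded the upper quartile of 19.4 kb of 443 genes with 3 peaks (median 7.87 kb). Without their first peaks, which both had a p above 1e-10, Ank3 keeps 1 gap of 17.8 kb and Sptan1 1 gap of 18.0 kb. Both lay below the upper quartile of 22.3 kb of genes with 2 peaks and above their median of 6.62 kb. Weak peaks were not removed from those genes. Sptbn4 lay within the quartiles of 2.46 and 7.45 kb of genes with 6 peaks. Dst, at 4.5 kb, lay just under the upper quartile of 4.51 kb of the 38 genes with 10 or more peaks. Per 10 kb of span, Sptbn4 had 1.56 peaks and Dst 1.37, near the medians of 1.58 and 1.54 of those genes. Sptan1 had 0.662, Macf1 0.282 and Ank3 0.217, all below the lower quartiles of 0.734 for genes with 3 peaks and 0.888 for genes with 2. These densities rest on the same positions as the gaps, so they are not a second measure. Those of Sptan1 and Ank3 include the first peaks, with a p above 1e-10. The gaps and density of Ank3 also leave out the 1 unlisted call between its first and second peaks, whose gene is not known here. Gene length was not matched in these comparisons.

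Fold by number of peaks placed the members differently. The highest fold of Macf1, 14.46, stood above the upper quartile of 9.84 of genes with 2 peaks. Sptan1, at 11.88, stood just under the upper quartile of 12.665 of genes with 3 peaks, and Ank3, at 7.85, was below their median of 8.3. Dst, at 12.04, was below the median of 16.335 of genes with 10 or more peaks and near their lower quartile of 11.778. Dst thus had many peaks of moderate fold. The 3 genes closest to it in number of peaks were Eif4g3, a translation initiation factor, with 15 peaks, Tpr, a nuclear pore basket protein, with 18, and the ciliary rootlet gene Crocc, with 14. Ties in number were settled by closeness of the highest fold to that of Dst, so nothing is read from their folds. Their median gaps were 5.57, 2.47 and 1.37 kb.

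Member peaks had a median length of 198 bases, against 161 bases over all listed peaks, and 4 of the 33 were shorter than 100 bases, against 18.5% of all. Apart from the long region in Dst, the longest were 751 and 620 bases, both in Sptbn4. The functional annotation deposited with the table named spectrin binding for 5 members (Ank1, Ank2, Ank3, Sptan1 and Sptbn4), a term carried by 18 listed genes. Actin binding was named for the 5 spectrin and spectraplakin members, among 105 listed genes. The axon term was attached to Ank3, Dst and Sptbn4, among 111 listed genes. The postsynaptic density term was attached to Ank2, Dst, Macf1 and Sptbn1, among 120. Terms of muscle were attached as well, Z disc to 5 members among 42 listed genes and sarcolemma to 4 among 43.

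Not all relatives of the members were listed. Among other spectrins, Sptb, the beta chain of red cells and muscle, had 3 peaks with folds of 5.13, 7.53 and 2.2 in order along the chromosome. The 7.53-fold peak had a score of 119.85, and it alone of the 3 reached a p of 1e-10. The gaps between them were 5.34 and 17.5 kb. Sptbn5 had no listed peak.

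Of the other plakins, Plec, which links intermediate filaments, had 2 peaks. The first, of 10.59-fold with a score of 3100, was 7383 bases long, the longest region of the table. Dsp, Evpl, Ppl and Eppk1, plakins of desmosomes and epithelia, had no listed peak. Plec therefore carried 1 long region and 1 of 357 bases (5.89-fold, score 1126.18), where Dst carried 16 mostly short ones.

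Partners of the members were listed in 30 of 60 cases over 3 lists, against 17.3% of protein-coding genes. At a p of at most 1e-10 it was 20 of 60, against 7.01% of protein-coding genes. Among listed genes 40.6% had such a peak, against 20 of the 30 listed partners. The protein-coding background includes genes that neurons do not express, and the lists were chosen with earlier results known. Of 20 proteins of the spectrin-actin junction, 12 had a peak, and 8 reached a p of 1e-10. The actin-coating tropomyosins were highest, Tpm3 at 32.53 and Tpm1 at 30.83, followed by the protein 4.1 family members Epb41l2 at 13.17 and Epb41l3 at 9.47. Of 22 ankyrin-binding membrane proteins, 11 had a peak and 7 reached that p, among them the anion exchanger Slc4a3 at 14.04 and Scn8a, a sodium channel of the initial segment, at 11.0. Of 18 microtubule and initial-segment partners, 7 had a peak and 5 reached that p, with Clip2 at 10.87, Ndel1 at 9.61, Capn2, a protease that cuts spectrin, at 9.6, and Camsap2, which caps microtubule minus ends, at 9.13. The median highest folds of the 3 lists were 8.57, 7.52 and 9.13, and that of the 8 members was 9.875, against 6.62 over all listed genes. These medians were not matched on peak number, which raises the chance of a high peak.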

How the data were processed

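One table of peaks from 1 IP and 1 input library was used, grouped by sample title. Per the labels' protocols, m6A RNA was pulled down with a commercial kit and sequenced from directional libraries. Tools named in the submitters' processing notes, with no role given, are STAR, HISAT2 2.0.4 and cutadapt 1.9.3. Peak names are those of MACS, per the file headers; no source used here gives its version, thresholds, build or annotation. Fold enrichment was deposited as a linear ratio of IP over background. Each p-value was deposited in the form of a score (its −log10 multiplied by 10), in 2 columns that were equal in all 8512 rows. The deposited percent of false discoveries was 100 in every row, so p was used. Length equalled end minus start, so starts are printed 1 higher.

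Members and lists were chosen with earlier results of these data known. The text names all 8 members with their highest, lowest, first and last peaks, all genes of relative lists of 5 or fewer, up to 4 per larger list by highest fold, and the 3 genes nearest Dst in peak number, with ties settled by closeness of highest fold. Some genes that this rule takes are not reported here. Sox9, Cnp, Aif1, C1qa, Col3a1 and Alas2 come from the marker lists. Gaps are bases between neighbouring peaks of a gene. The gap and merging steps were tested on simulated data. Alternatives were p limits, a 5-fold minimum, a 100-base minimum, merging, naming by gene ID, midpoints and summaries per gene. Depth is unknown, and no interval for counting error was possible. Computation used matplotlib 3.10.9, SciPy 1.17.1, numpy 2.4.6 and pandas 2.3.3 under Python 3.11.15.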

Additional observations from a re-analysis of the deposited data

How the results depend on the processing

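Of 52 recomputed values of the main results, 44 stayed within 1.5 times of the count or within the 95% interval of the median. Merging of overlapping or touching regions and naming by gene ID are among these settings and could not move the member values. No member regions touched, and all 33 member peaks already carried the matching gene ID. The intervals treat peaks, or gaps, as independent although many come from 1 gene, so 44 of 52 is no measure of stability. The 33 member peaks became 17 without Dst and 18 when p was limited to 1e-10. The median fold, 6.9 over peaks, was 8.69 at a p of at most 1e-10 and 9.875 when the highest fold per member was used. The median gap, 6.0 kb, was 17.9 kb at a p of at most 1e-10, where fewer peaks leave wider gaps, and 17.7 kb without Dst. Members with 3 or more peaks numbered 4, and 2 at a p of at most 1e-5 and 2 at 1e-10. Of single members, Sptbn1 and Ank1 had 0 peaks at both of those limits, Ank1 had 0 at a minimum of 5-fold, and Ank2 had 0 at a minimum of 100 bases. Macf1 had 1 peak at a minimum of 5-fold and Ank3 had 1 at a minimum of 100 bases, which leaves no gap in either gene under that setting. At a p of 1e-10 Sptbn4 had 3 peaks and Dst 8. Overlapping or touching regions did not occur within the members, and merging under 1000 bases gave 30 regions. The limit of 0.05, the removal of Dst and the alternatives for members with 3 or more peaks were chosen after seeing the data. Peaks per 1000 residues, which were planned, were not run because no protein sequences were used here. No paired analysis was possible because each group held 1 library. The table holds no read counts, so how far depth limits the weak peaks was not tested.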
